A study of Mus musculus with 12 samples.

Results

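The genes described here encode the subunits of the proteasome, its activators and the chaperones that assemble it, measured in early thymic precursors, the earliest T-lineage cells of the mouse thymus. They were chosen by symbol: Psma to Psmg followed by a number, without the immunoproteasome subunits Psmb8, Psmb9 and Psmb10. This gave 45 of the 13016 genes in the table, and all 45 had at least 1 RPKM in at least 4 of the 12 libraries, which was the filter for testing. RPKM is reads scaled to transcript length and library size, so levels can be set beside each other between genes. Each library came from 100 sorted C57BL/6 cells, with 4 libraries in each of 3 groups. The dKO_Flt3ITD cells were Ezh2 fl/fl Runx1 fl/fl with Rag1Cre+ and, on 1 allele, Flt3 ITD/+, an internal tandem duplication that activates this cytokine receptor. The dKO cells were Ezh2 fl/fl Runx1 fl/fl with Rag1Cre+ alone. The control cells carried the same floxed alleles, Ezh2 fl/fl Runx1 fl/fl, without the recombinase, so floxed alleles were shared by all groups. Rag1Cre deletes where Rag1 is switched on. The labels give no age and do not say which animals the replicates came from, so each p-value here covers library-to-library spread, which may be technical.

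The proteasome is the protease that degrades proteins tagged with ubiquitin. Its 20S core is a barrel of alpha rings, which form the gate, and beta rings, of which Psmb5, Psmb6 and Psmb7 carry the active sites. The 19S particle caps the core, where its Psmc ATPases unfold substrates and its Psmd subunits bind and remove ubiquitin. In the thymus, cortical epithelial cells replace an active site by Psmb11, and interferon-exposed cells replace the active sites by the immunoproteasome subunits and raise the PA28 activator encoded by Psme1 and Psme2. When proteasome activity is short, mammalian cells raise these genes together through the transcription factor NRF1, encoded by Nfe2l1.

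The whole reads behind the RPKM totalled 13623436 to 33985972 per library. Control 1 stood apart, correlating least with the rest, at a mean of 0.786 over the 10690 genes tested. Ezh2, the deleted methyltransferase gene, averaged 16.4 ± 5.59 RPKM in dKO_Flt3ITD, 22.6 ± 5.87 in dKO and 39.8 ± 5.83 in control (SD, n = 4 each), with limma adjusted p of 0.0949 and 0.470 against control. Runx1, the deleted transcription factor gene, was at 47.5 ± 11.8 RPKM in dKO_Flt3ITD, 46.4 ± 11.1 in dKO and 21.2 ± 4.57 in control. It was higher in the libraries labelled as deleted, but a value over the whole gene does not check the deletion. Directions therefore rest on the labels. All 9 markers of the labelled cells were measured, and Lck and Dntt fell in dKO_Flt3ITD against control, with limma log2 fold changes of -3.22 and -6.32 and adjusted p of 0.00281 and 0.000564. Of 10 macrophage markers 8 were measured and 7 tested, and Emr1 and Spic rose in that comparison, by 3.50 and 3.63 on the log2 scale, with adjusted p of 0.0481 and 0.0478. Of the 7 tested macrophage markers 5 were above 0 there, with a median log2 fold change of 0.59. The macrophage list summed to between 47.8 and 122 RPKM in dKO_Flt3ITD, 40.4 and 112 in dKO, and 14.2 and 63.6 in control. Of the 10 measured genes of a dissociation stress list, Fos, Jun and Zfp36 fell in that comparison, with log2 fold changes of -5.42, -2.76 and -2.42 and limma adjusted p of 0.000358, 0.0373 and 0.0287. The list summed to between 33.9 and 134 RPKM in dKO_Flt3ITD, 122 and 259 in dKO, and 178 and 740 in control, and its median log2 fold change in dKO_Flt3ITD against control was -1.62, with 0 of 10 genes above 0. The part of both lists in the values given here was not tested, and in bulk samples fewer cells of a type and less RNA per cell cannot be told apart.

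No proteasome gene passed the test in any of the 3 comparisons. In simulated data the test called at most 7.23% of log2 changes of 1, so a gene not called may still have changed. In dKO_Flt3ITD against dKO, which asks what the Flt3 allele adds, limma on log2(RPKM + 1) called 0 of 45 members at an adjusted p under 0.05, where the background was 0% of the 10690 genes. At an unadjusted p under 0.05 were 5 of 45, Psmb5, Psmc6, Psmd4, Psmg1 and Psmg4, or 11.1%, against 7.71% of all genes. In dKO_Flt3ITD against control it again called 0 of 45, against a background of 1.5%, with 106 genes higher and 54 lower. When each library was rescaled to the same RPKM sum, that split became 84 higher and 84 lower. Psmb4, Psmb5, Psme2, Psme4 and Psmg4 were under an unadjusted p of 0.05, again 11.1%, against 13.4% of all genes. In dKO against control, which asks what loss of both regulators does, it called 0 of 45 against a background of 1.02%. Psma5 and Psme4 were under an unadjusted p of 0.05 there, or 4.44%, against 9.18% of all genes. Voom on the recovered reads also called 0 members in each comparison, with 3, 6 and 2 of them under an unadjusted p of 0.05.

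The lowest adjusted p of any member was 0.391 in dKO_Flt3ITD against dKO, 0.0787 in dKO_Flt3ITD against control, both for Psmg4, and 0.493 in dKO against control, for Psma5. A few members had groups whose libraries did not overlap. In dKO_Flt3ITD against dKO, 5 of 45 members had none, or 11.1% against 4.28% of all genes. Psmb4, Psmb5, Psmg1 and Psmg4 were higher, where 2.08% of all genes were, and Psmc6 was lower, where 2.2% were. In dKO_Flt3ITD against control, Psmb4 and Psmg4 had none, both higher, or 4.44% against 7.67% of all genes, of which 4.16% were higher and 3.51% lower. In dKO against control, Psma3, Psma4 and Psme1 had none, all higher, or 6.67% against 6.3% of all genes, of which 3.93% were higher. In the comparisons with control these shares were under or close to the background. Both comparisons with control use the same 4 control libraries, and each mutant group enters 2 comparisons.

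The members' median log2 fold change was -0.02 in dKO_Flt3ITD against dKO, with 22 of 45 above 0, or 48.9% against 50.3% of all genes. It was 0.30 in dKO_Flt3ITD against control, with 32 of 45 above 0, or 71.1% against 50.1% of all genes. In dKO against control it was 0.32, with 33 of 45 above 0, or 73.3% against 50.7%. Over all genes tested the medians were 0.00 in dKO_Flt3ITD against dKO, 0.00 in dKO_Flt3ITD against control and 0.01 in dKO against control. Of the single libraries left out, control 1 lowered the positive medians most. Without that library they were 0.01 in dKO_Flt3ITD against control and -0.01 in dKO against control, with 23 and 22 members above 0. Leaving out dKO_Flt3ITD 1 instead gave a median of 0.11 in dKO_Flt3ITD against control. Without control 1, dKO 1 and dKO_Flt3ITD 1 together, the medians were -0.20 in dKO_Flt3ITD against dKO, -0.23 in dKO_Flt3ITD against control and -0.00 in dKO against control. The dots of log2 fold change by role show the same shift.

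**Figure D1:**
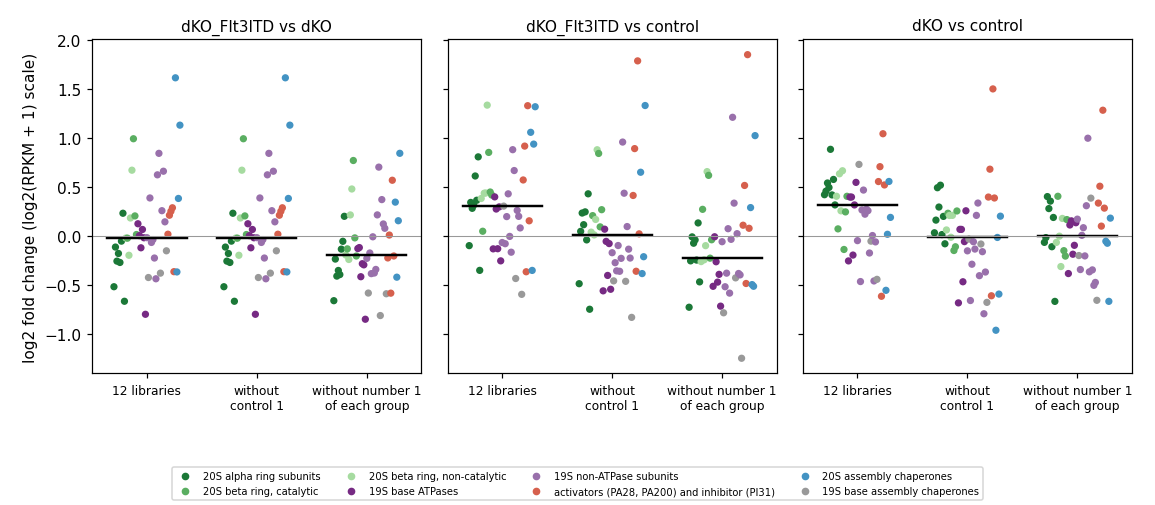
Log2 fold change of each of the 45 proteasome genes on the log2(RPKM + 1) scale (vertical axis) in 3 comparisons, 1 dot per gene coloured by role, with the line at the median. In each panel the fit on 12 libraries stands beside fits without control 1 and without library number 1 of each group; the medians against control, 0.30 and 0.32 over 12 libraries, lie at 0.01 and -0.01 without control 1.

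Most of the members' spread lay between libraries and not between groups. The mean log2(RPKM + 1) of the 45 genes was 7.23, 6.63, 6.64 and 6.57 in the 4 dKO_Flt3ITD libraries, 6.58, 6.48, 6.87 and 6.83 in dKO, and 5.68, 6.79, 6.87 and 6.47 in control. Control 1 was the lowest library for 23 of 45 members, and dKO_Flt3ITD 1 the highest for 24. Summed over the members, dKO_Flt3ITD libraries held 7334 to 16083 RPKM, dKO libraries 7971 to 11519 and control libraries 4224 to 9686, so the ranges of all 3 groups overlapped. As a share of all recovered reads the members took 0.947% to 1.40% in dKO_Flt3ITD, 1.05% to 1.13% in dKO and 0.593% to 1.11% in control.

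The 20S and 19S particles did not move alike across libraries. Relative to each gene's mean over 12 libraries, the 14 widely expressed 20S subunits had a median deviation of 0.99 in dKO_Flt3ITD 1, 0.53 in dKO 1 and -1.28 in control 1 (log2), where the 17 subunits of the 19S particle had 0.36, -0.26 and -0.93. The gap between the mean log2 levels of 20S and 19S genes was 2.72, 2.38, 2.001 and 1.47 in dKO_Flt3ITD, 2.92, 2.29, 1.80 and 1.69 in dKO, and 1.78, 1.80, 1.70 and 1.98 in control. Its mean was 2.14 ± 0.54 in dKO_Flt3ITD, 2.18 ± 0.56 in dKO and 1.82 ± 0.12 in control (SD, n = 4 each), and the groups overlapped. The particles also differed in gene length. The 20S genes had a median length of 983 bases and the 19S genes 1564, against 2740.5 over all genes tested. In the same 3 libraries, 849 other genes of at least 50 RPKM and under 1500 bases had median deviations of 0.97, 0.43 and -0.52, and 759 longer ones 0.05, 0.05 and -0.41. The short genes thus lay near the 20S subunits in both mutant libraries, but in control 1 short and long genes lay close together and well above the 20S subunits. The slope of the deviations on length was -0.31 in dKO_Flt3ITD 1, -0.08 in dKO 1 and 0.20 in control 1 (log2 per doubling of length), and control 1, with the steepest positive slope, had a gap between the particles like that of the other controls. The part of length in the gap was not tested. With each library's trend on length removed, an alternative chosen after seeing the data, the members' median log2 fold change was -0.09 in dKO_Flt3ITD against dKO, 0.06 in dKO_Flt3ITD against control and 0.23 in dKO against control.

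**Figure D2:**
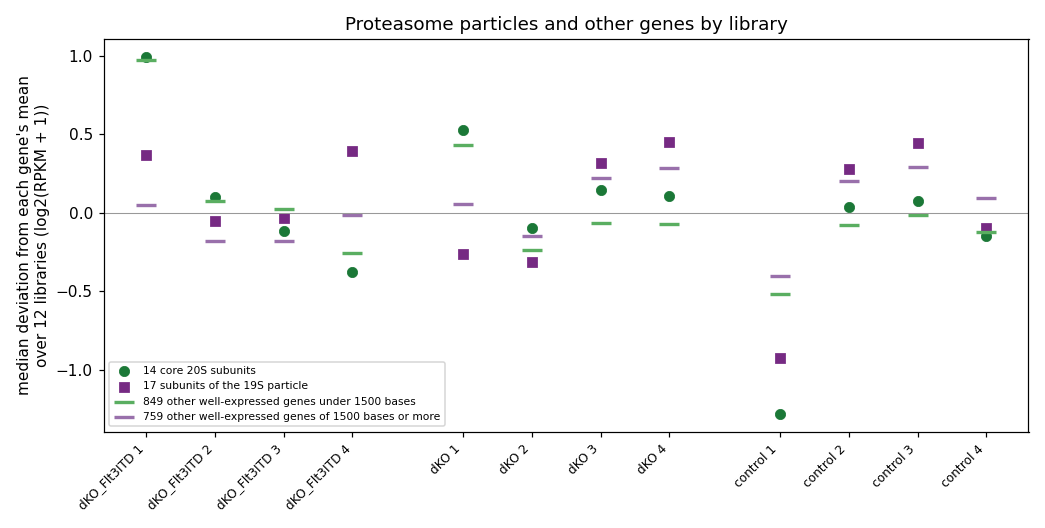
Median deviation from each gene's mean over 12 libraries on the log2(RPKM + 1) scale (vertical axis) in every library (horizontal axis), for 14 core 20S subunits, 17 subunits of the 19S particle and other genes of at least 50 RPKM in 2 length classes. The 20S genes lie at 0.99 in dKO_Flt3ITD 1 and at -1.28 in control 1, beside 0.97 and -0.52 for the other short genes.

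Within groups the 20S subunits varied together, and the whole set did so less. Over 12 libraries, the median pairwise correlation of deviations from the group means was 0.40 among all members, 0.81 among the 14 20S subunits, 0.52 among the 17 subunits of the 19S particle and 0.44 between the particles. Among 1642 genes of at least 50 RPKM it was 0.28, among 80 cytosolic ribosomal protein genes 0.84, among 76 mitochondrial ribosomal protein genes 0.345, and among the 8 genes of the CCT chaperonin 0.74. Without control 1 it was 0.25 among all members, against 0.23 for the well-expressed genes, and 0.74 among 20S subunits, 0.34 among 19S subunits and 0.16 between the particles. Without library number 1 of each group it was 0.16 among all members, against 0.08 for the well-expressed genes, and 0.39 among 20S subunits, 0.44 among 19S subunits and 0.06 between them. Over those 9 libraries the cytosolic ribosomal protein genes had 0.51 and the CCT genes 0.80, both above the 20S subunits. These are descriptions over 12, 11 or 9 points that share a library's depth, and the part of gene length in them was not tested. Psma7, an alpha-ring subunit, followed the mean of the other core subunits most closely, with r of 0.94, and Psmd14, the deubiquitinase of the 19S particle, came next with 0.92. Psme4 and Psmb11 ran against it, with r of -0.80 and -0.68. They are the longest transcripts of the set, at 6442 and 4247 bases.

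**Figure D3:**
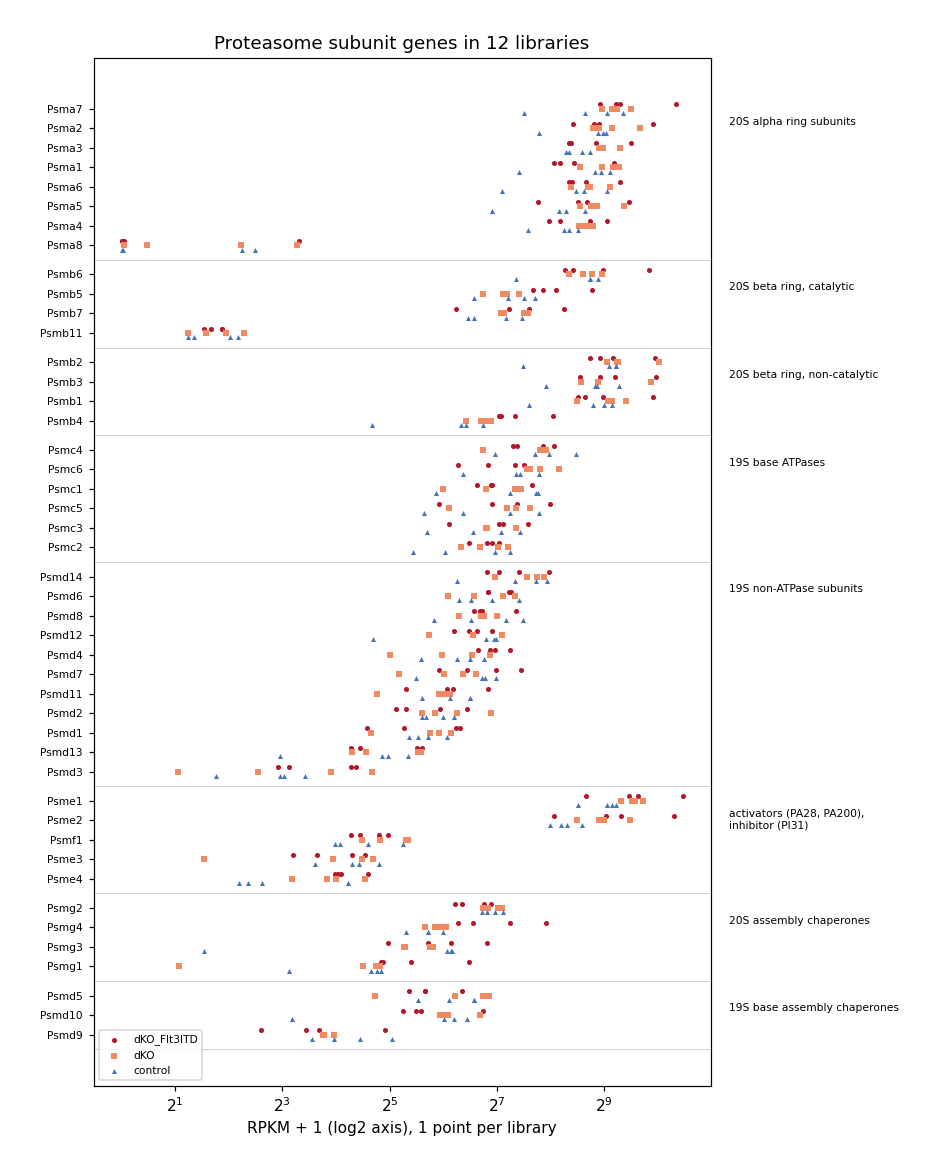
RPKM + 1 on a log2 axis (horizontal) of the 45 proteasome genes (rows, grouped by role), 1 point per library in dKO_Flt3ITD, dKO and control. The points of the 3 groups overlap for nearly all genes, Psma8 and Psmb11 lie lowest. By mean, the 7 widely expressed alpha subunits lie to the right of every 19S subunit, while Psmb4, Psmb5 and Psmb7 lie among the 19S ATPases.

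Levels differed by role. The roles also differed in transcript length, and the part of length in the levels was not tested. The 7 widely expressed alpha subunits averaged 358 to 597 RPKM over 12 libraries, the 7 widely expressed beta subunits 117 to 599, the ATPases of the 19S base 107 to 214, and the 11 non-ATPase subunits of the 19S particle 10.2 to 176. Of the beta subunits, Psmb4 at 117, Psmb7 at 155 and Psmb5 at 194 RPKM lay inside the range of the ATPases. Psme1 was the highest member at 696 RPKM, and the tissue-restricted Psma8 and Psmb11 were the lowest at 2.50 and 2.41. The residual spread of a member between libraries of a group had a median of 0.59 (SD, log2), against 0.72 over all genes tested and 0.51 over well-expressed ones. Psmg2 was the steadiest at 0.23, and Psma8 the least steady at 1.51.

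Promoters are shown for 5 of the members given with all their values, chosen after the values were seen, as examples of 3 motifs, with the motif found upstream in capitals. The sequences are from RefSeq on GRCm38.p6, written 5′ to 3′ on the gene's strand. Psmb5 and Psmc6 hold the core of the antioxidant response element, TGACNNNGC, to which NRF1 binds. Psmg1 and Psme4 hold the ETS core CCGGAAG, and Psmg4 a GC box, GGGCGG. In Psmc6 and Psmg4 the capitals are the reverse complement of the motif.
Psmb5, chr14:54618014-54618062, minus strand: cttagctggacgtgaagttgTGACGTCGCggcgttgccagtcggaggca
Psmc6, chr14:45329577-45329625, plus strand: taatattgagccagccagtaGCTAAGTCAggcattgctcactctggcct
Psmg1, chr16:95991003-95991049, minus strand: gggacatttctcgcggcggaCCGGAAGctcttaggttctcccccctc
Psme4, chr11:30771702-30771748, plus strand: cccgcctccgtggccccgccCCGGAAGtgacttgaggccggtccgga
Psmg4, chr13:34162915-34162960, plus strand: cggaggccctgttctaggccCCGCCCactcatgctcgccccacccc

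In the 250 bases upstream of the start, searched on both strands, 37 members had 40 promoter windows. The ETS core was in 13 of 40, or 32.5%, against 6.91% of all 32851 promoters and 14.6% of the promoters of tested genes. The antioxidant core was in 5 of 40, or 12.5%, against 10.2% and 12.1%, and the 5 were those of Psmb5, Psmb6, Psmc6, Psmd9 and Psmd12. The NF-Y box CCAAT was in 32.5% against 33.9% and 35.9%, and the GC box in 55% against 32.7% and 57.2%. The core of the interferon response element, a GAAA pair with any 2 bases between, was in 7.5%, against 2.98% and 2.88%. These matches are letters in a window and not binding sites.

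The alpha ring forms the gate of the core. In dKO_Flt3ITD against dKO 1 of 8 alpha genes had a log2 fold change above 0, in dKO_Flt3ITD against control 6 of 8, and in dKO against control 8 of 8, with medians of -0.22, 0.33 and 0.47, and none passed. Psma5 had 709, 411, 366 and 218 RPKM in dKO_Flt3ITD, 662, 373, 464 and 432 in dKO, and 119, 401, 314 and 285 in control. The control range overlapped both others, and its low end was control 1. In dKO over control its log2 fold change was 0.88 ± 0.40 (SE), with a limma adjusted p of 0.493, and 0.52 without control 1. Psma3 had 722, 458, 326 and 332 RPKM in dKO_Flt3ITD, 628, 480, 505 and 481 in dKO, and 324, 382, 426 and 311 in control. Every dKO library lay above every control, with a log2 fold change of 0.54 and a limma adjusted p of 0.651. Psma4 had 530, 427, 250 and 288 RPKM in dKO_Flt3ITD, 418, 440, 395 and 369 in dKO, and 189, 365, 325 and 303 in control. Its dKO range began just above the control range, and its adjusted p was 0.719. Psma3 and Psma5 have pseudogene copies of 100% and 98.6% identity, so their reads may be split or shared.

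Psma7, the highest alpha gene, had 1292, 593, 629 and 487 RPKM in dKO_Flt3ITD, 607, 495, 567 and 727 in dKO, and 181, 533, 654 and 397 in control. Its extremes were dKO_Flt3ITD 1 and control 1, and the other libraries of the 3 groups overlapped. Psma8, the alpha subunit of the testis, had 0, 0.0317, 8.87 and 0 RPKM in dKO_Flt3ITD, 8.63, 0.388, 3.70 and 0.0317 in dKO, and 0, 4.62, 3.72 and 0.0205 in control. Every group held both libraries with 156 to 371 reads and libraries with 0 to 10 reads. The remaining alpha genes, Psma1, Psma2 and Psma6, had log2 fold changes of -0.52 to -0.05 in dKO_Flt3ITD against dKO, -0.10 to 0.36 in dKO_Flt3ITD against control and 0.42 to 0.46 in dKO against control.

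Of the active-site subunits, Psmb5, the chymotrypsin-like site, was the only one whose groups separated, and only between the mutants. It had 436, 230, 203 and 273 RPKM in dKO_Flt3ITD, 138, 169, 105 and 144 in dKO, and 148, 208, 180 and 94.1 in control. All 4 dKO_Flt3ITD libraries lay above all 4 dKO libraries, while the lowest of them lay below the highest control. The means were 286 ± 104 in dKO_Flt3ITD, 139 ± 26.1 in dKO and 157 ± 48.8 in control (SD, n = 4 each). In dKO_Flt3ITD against dKO this gave a log2 fold change of 0.99 ± 0.32 (SE), with a limma adjusted p of 0.418, and 0.85 against control, with 0.246. Its pseudogene Gm3375 is 98.9% identical. Psmb6, the caspase-like site, had 913, 504, 341 and 310 RPKM in dKO_Flt3ITD, 497, 326, 438 and 390 in dKO, and 164, 428, 471 and 425 in control. Without control 1 the control values lay inside the dKO_Flt3ITD range. Psmb7, the trypsin-like site, had 74.8 to 304 RPKM in dKO_Flt3ITD, 134 to 191 in dKO and 87.6 to 176 in control. Its log2 fold changes were 0.01 in dKO_Flt3ITD against dKO, 0.42 in dKO_Flt3ITD against control and 0.40 in dKO against control.

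Psmb11, the active site of cortical epithelial cells, lies head to head with Psmb5 on chromosome 14, at 54621433 to 54629556, with Psmb5 at 54614119 to 54618022 (GRCm38). It had 1.92, 2.68, 2.65 and 2.16 RPKM in dKO_Flt3ITD, 1.37, 3.88, 2.86 and 1.97 in dKO, and 3.50, 1.54, 1.36 and 3.05 in control. The 3 groups covered the same range, with log2 fold changes of -0.02 in dKO_Flt3ITD against dKO, 0.05 in dKO_Flt3ITD against control and 0.07 in dKO against control. The 4 epithelial and stromal markers that were measured, Ccl25, Krt8, Krt18 and Dll4, summed to between 10.3 and 16.6 RPKM in dKO_Flt3ITD, 10.9 and 64.1 in dKO, and 0.347 and 16.4 in control, and neither of those tested, Ccl25 and Krt18, passed. Their part in the Psmb11 level was not tested.

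Among the beta subunits without an active site, Psmb4 stood out and Psmb1, Psmb2 and Psmb3 did not. Psmb4, the last beta subunit to join the ring in human cells, had 263, 134, 161 and 130 RPKM in dKO_Flt3ITD, 110, 118, 85.5 and 103 in dKO, and 24.6, 106, 79.6 and 84.5 in control. Every dKO_Flt3ITD library lay above every dKO and every control library. The means were 172 ± 62.0 in dKO_Flt3ITD, 104 ± 13.8 in dKO and 73.6 ± 34.6 in control (SD, n = 4 each). The log2 fold change was 1.33 ± 0.40 (SE) in dKO_Flt3ITD against control, with a limma adjusted p of 0.123, and 0.88 without control 1. Against dKO it was 0.67, with an adjusted p of 0.744. Psmb2, the highest of the group, had 994, 570, 486 and 427 RPKM in dKO_Flt3ITD, 1044, 532, 603 and 610 in dKO, and 178, 548, 600 and 599 in control. Apart from library number 1 of each group, its values were between 427 and 610 everywhere. Psmb1 and Psmb3 had log2 fold changes of -0.02 and 0.18 in dKO_Flt3ITD against dKO, 0.38 and 0.44 in dKO_Flt3ITD against control, and 0.40 and 0.25 in dKO against control.

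The 19S ATPases, which unfold substrates, had median log2 fold changes of -0.01 in dKO_Flt3ITD against dKO, 0.07 in dKO_Flt3ITD against control and 0.36 in dKO against control, and none of 6 passed. Psmc6 was the only member that was lower in all dKO_Flt3ITD than in all dKO libraries. It had 180, 161, 76.1 and 113 RPKM in dKO_Flt3ITD, 283, 189, 223 and 195 in dKO, and 81.8, 220, 172 and 164 in control. The control range overlapped both mutant ranges. In dKO_Flt3ITD over dKO its log2 fold change was -0.80 ± 0.35 (SE), with a limma adjusted p of 0.612. Psmc4, the highest ATPase, had 231, 157, 166 and 267 RPKM in dKO_Flt3ITD, 106, 240, 222 and 236 in dKO, and 124, 251, 356 and 208 in control. Psmc2, the lowest, had 131, 112, 88.6 and 119 RPKM in dKO_Flt3ITD, 102, 80.1, 130 and 146 in dKO, and 42.1, 124, 151 and 64.3 in control. Neither gene separated any groups. Psmc1, Psmc3 and Psmc5 had log2 fold changes between -0.26 and 0.40.

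The 11 non-ATPase subunits of the 19S particle include its lid and its ubiquitin receptors. Their median log2 fold changes were 0.14 in dKO_Flt3ITD against dKO, 0.20 in dKO_Flt3ITD against control and 0.00 in dKO against control, and none passed. Psmd4, a ubiquitin receptor, had 150, 117, 99.7 and 125 RPKM in dKO_Flt3ITD, 62.0, 31.2, 91.4 and 116 in dKO, and 46.7, 89.6, 107 and 75.2 in control. The dKO_Flt3ITD libraries overlapped the top of the dKO and of the control range. Its log2 fold change was 0.84 in dKO_Flt3ITD against dKO, with a limma adjusted p of 0.641, and 0.67 against control, with 0.487. Psmd14, the deubiquitinase that strips substrates, was the highest of the group, with 251, 111, 169 and 131 RPKM in dKO_Flt3ITD, 214, 124, 188 and 235 in dKO, and 75.1, 212, 245 and 161 in control. Psmd3, a scaffold subunit of the lid, was the lowest, with 6.52, 7.67, 18.3 and 19.7 RPKM in dKO_Flt3ITD, 1.09, 4.83, 24.4 and 14.1 in dKO, and 7.13, 9.72, 6.74 and 2.39 in control. All 3 groups overlapped for both genes. The other 8 genes of the group had log2 fold changes of -0.44 to 0.66 in dKO_Flt3ITD against dKO, -0.17 to 0.43 in dKO_Flt3ITD against control and -0.47 to 0.47 in dKO against control.

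The 4 activator genes and the inhibitor had median log2 fold changes of 0.21 in dKO_Flt3ITD against dKO, 0.57 in dKO_Flt3ITD against control and 0.55 in dKO against control, and none of the 5 passed. Psme1 and Psme2, which encode the PA28 ring, lie near each other on chromosome 14, at 55578123 to 55581529 and 55587441 to 55591113. Psme1 had 1412, 703, 795 and 402 RPKM in dKO_Flt3ITD, 844, 636, 737 and 767 in dKO, and 364, 563, 534 and 597 in control. All dKO libraries lay above all controls, while dKO_Flt3ITD 4 lay below 3 of the 4 controls. Its log2 fold change of dKO over control was 0.55, with a limma adjusted p of 0.714, and 0.40 without control 1. Psme2 had 1268, 527, 632 and 267 RPKM in dKO_Flt3ITD, 720, 360, 509 and 478 in dKO, and 291, 315, 382 and 254 in control. Again dKO_Flt3ITD 1 was highest and dKO_Flt3ITD 4 lay inside the control range. The log2 fold change was 0.92 in dKO_Flt3ITD against control and 0.71 in dKO against control, with limma adjusted p of 0.299 and 0.651.

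Interferon-response genes are set beside PA28 because interferon is known to raise both. The 14 genes of that list, all measured, summed to between 628 and 5106 RPKM in dKO_Flt3ITD, 1135 and 2101 in dKO, and 406 and 871 in control. The dKO sums lay above all control sums, and the dKO_Flt3ITD sums overlapped them. Their median log2 fold change was 0.09 in dKO_Flt3ITD against dKO, 1.25 in dKO_Flt3ITD against control and 1.33 in dKO against control, with 9, 13 and 14 of 14 above 0 in these comparisons. Ifi27l2a was the only one that passed, in dKO_Flt3ITD against control, with a log2 fold change of 3.38 and a limma adjusted p of 0.00675. The immunoproteasome subunits had medians of 0.34 in dKO_Flt3ITD against dKO, 1.08 in dKO_Flt3ITD against control and 0.77 in dKO against control, and none of 3 passed. Psmb8 had 1142, 804, 898 and 439 RPKM in dKO_Flt3ITD, 567, 411, 730 and 892 in dKO, and 199, 510, 469 and 377 in control. Psmb9 had 828, 385, 371 and 189 RPKM in dKO_Flt3ITD, 311, 189, 343 and 420 in dKO, and 112, 199, 237 and 184 in control. The mutant ranges of both genes reached into the control range, with limma adjusted p of 0.19 and 0.21 in dKO_Flt3ITD against control. The part of the interferon response in the PA28 values was not tested.

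Psme4 encodes PA200, an activator that acts without ATP. It had 14.8, 23.1, 16.1 and 15.4 RPKM in dKO_Flt3ITD, 22.3, 15.02, 8.07 and 13.2 in dKO, and 17.6, 5.18, 3.58 and 4.10 in control. Control 1 lay among the mutants, and the other 3 controls lay below all 8 mutant libraries. The log2 fold change was 1.33 ± 0.49 (SE) in dKO_Flt3ITD against control, with a limma adjusted p of 0.230, and 1.04 in dKO against control, with 0.536. Without control 1 these were 1.78, with an adjusted p of 0.0684, and 1.498, with 0.187. Psme3, the nuclear PA28 ring, and Psmf1, the inhibitor PI31, had log2 fold changes of 0.25 and -0.37 in dKO_Flt3ITD against dKO, -0.37 and 0.15 in dKO_Flt3ITD against control, and -0.62 and 0.52 in dKO against control.

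The 20S assembly chaperones held the member with the lowest p. Their median log2 fold changes were 0.75 in dKO_Flt3ITD against dKO, 1.00 in dKO_Flt3ITD against control and 0.10 in dKO against control, and none of 4 passed. Psmg4 pairs with Psmg3 to build the alpha ring. It had 242, 93.1, 152 and 76.5 RPKM in dKO_Flt3ITD, 60.1, 49.5, 56.5 and 65.5 in dKO, and 51.8, 62.8, 51.5 and 38.7 in control. All 4 dKO_Flt3ITD libraries lay above all 8 others, and the dKO and control ranges overlapped. The means were 141 ± 74.6 in dKO_Flt3ITD, 57.9 ± 6.71 in dKO and 51.2 ± 9.87 in control (SD, n = 4 each). The log2 fold change was 1.32 ± 0.35 (SE) in dKO_Flt3ITD against control, with a limma adjusted p of 0.0787, and 1.13 ± 0.35 against dKO, with 0.391. It passed only without dKO_Flt3ITD 4, at 1.56 and an adjusted p of 0.0342, and over all alternatives its adjusted p ran up to 0.210. At 541 bases Psmg4 is the shortest transcript of the set. With the length trend removed its log2 fold change against control was 0.87, with an adjusted p of 0.152.

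Psmg1, which pairs with Psmg2, had 88.4, 41.4, 28.2 and 27.7 RPKM in dKO_Flt3ITD, 1.09, 21.8, 27.4 and 25.9 in dKO, and 7.71, 26.1, 24.0 and 27.8 in control. The lowest dKO_Flt3ITD library, at 27.7 RPKM, lay just above the highest dKO library, at 27.4, and dKO 1 held 18 reads. In dKO_Flt3ITD against dKO the log2 fold change was 1.61 ± 0.71 (SE), with a limma adjusted p of 0.612. It was at least 0.70 with any single library left out, and 0.34 without library number 1 of each group. Psmg2 had 118, 107, 80.3 and 73.8 RPKM in dKO_Flt3ITD, 136, 105, 129 and 113 in dKO, and 111, 105, 125 and 138 in control. Its dKO_Flt3ITD range reached lower than the others, with a log2 fold change of -0.37 against dKO. Psmg3 had 30.2 to 112 RPKM in dKO_Flt3ITD, 37.5 to 55.1 in dKO, and 66.2 to 70.5 in control apart from 1.89 in control 1.

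The 19S base chaperones, which hold the ATPases until the base is built, had median log2 fold changes of -0.38 in dKO_Flt3ITD against dKO, -0.44 in dKO_Flt3ITD against control and -0.05 in dKO against control, and none of 3 passed. Psmd5 had 49.3, 49.8, 40.2 and 80.7 RPKM in dKO_Flt3ITD, 25.7, 73.6, 115 and 106 in dKO, and 68.0, 94.8, 93.7 and 45 in control. Psmd9 had 29.1, 11.8, 5.10 and 9.89 RPKM in dKO_Flt3ITD, 12.5, 12.6, 12.7 and 14.6 in dKO, and 10.7, 14.7, 20.9 and 32.2 in control. No groups separated for either gene. Psmd9 shares 1849 of its 7248 annotated exonic bases with Gm26745 on the other strand. The library kit marks no strand, so reads from shared bases cannot be told apart. How many of these bases lie in the 2591 behind the RPKM is not known. Smaller overlaps on the other strand occur for other members, such as Psmb7 with Nek6 at 405 bases. Psmd10 had log2 fold changes of -0.43 in dKO_Flt3ITD against dKO, 0.30 in dKO_Flt3ITD against control and 0.73 in dKO against control, and control 1 was its lowest library at 8.03 RPKM.

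**Figure D4:**
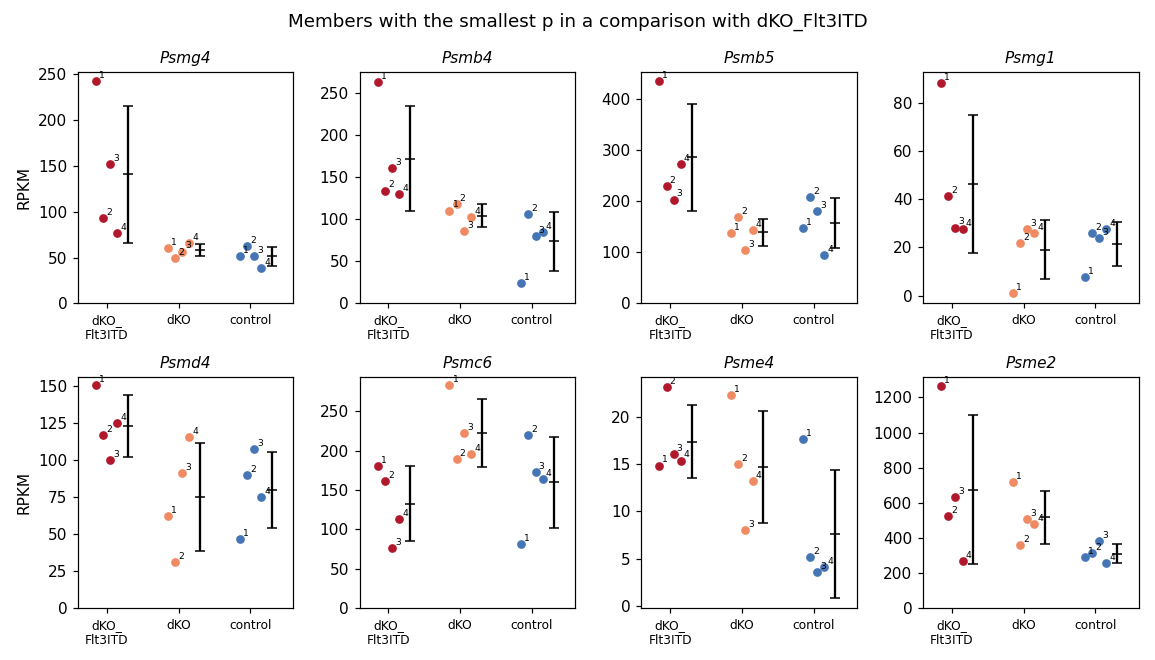
RPKM (vertical axis) of 8 proteasome genes in dKO_Flt3ITD, dKO and control, 1 numbered dot per library, with the bar at the mean ± SD (n = 4). Psmg4 and Psmb4 lie higher in all 4 dKO_Flt3ITD libraries than in all others, at 76.5 to 242 RPKM and 130 to 263 RPKM, and no gene passed the test.

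Genes around the proteasome showed no called change. Of 11 tested partners without a Psm name none passed, and their median log2 fold changes were 0.10 in dKO_Flt3ITD against dKO, 0.29 in dKO_Flt3ITD against control and 0.13 in dKO against control. Shfm1, a small 19S subunit, had 1499, 809, 932 and 547 RPKM in dKO_Flt3ITD, 673, 500, 501 and 602 in dKO, and 417, 558, 578 and 526 in control. Usp14, a deubiquitinase of the 19S particle, averaged 22.9 ± 9.40 RPKM in dKO_Flt3ITD, 36.3 ± 10.4 in dKO and 43.4 ± 10.99 in control (SD, n = 4 each), with a limma adjusted p of 0.27 in dKO_Flt3ITD against control. Of the 12 genes that regulate proteasome transcription 10 were tested, none passed, and their medians were -0.25 in dKO_Flt3ITD against dKO, -0.13 in dKO_Flt3ITD against control and 0.03 in dKO against control. Nfe2l1, which encodes NRF1, averaged 4.99 ± 2.40 RPKM in dKO_Flt3ITD, 1.99 ± 1.41 in dKO and 6.45 ± 3.31 in control, with a log2 fold change of -1.33 in dKO against control and a limma adjusted p of 0.42. Among 14 ubiquitin, E1 and shuttle genes none passed, and their medians were 0.19 in dKO_Flt3ITD against dKO, 0.04 in dKO_Flt3ITD against control and -0.02 in dKO against control. Among 12 other deubiquitinases none passed either, with medians of -0.16, -0.19 and -0.21 in these comparisons. The lowest p was that of Usp22, with 59.0 ± 13.9 RPKM in dKO_Flt3ITD, 74.1 ± 22.7 in dKO and 125 ± 23.8 in control, and a limma adjusted p of 0.13 in dKO_Flt3ITD against control.

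In dKO_Flt3ITD against dKO the median log2 fold change was 0.36 for the 80 cytosolic ribosomal protein genes, 0.26 for the 76 mitochondrial ones and -0.11 for the 8 CCT genes, beside -0.02 for the proteasome. In dKO_Flt3ITD against control it was 0.43, 0.32 and -0.02 for these lists, beside 0.30. In dKO against control it was 0.05, 0.11 and 0.01, beside 0.32 for the proteasome. Without control 1 the proteasome medians were 0.01 in dKO_Flt3ITD against control and -0.01 in dKO against control. Those of the other lists were not computed without it. None of the ribosomal or CCT genes passed in any comparison. The lists differ in median length, at 706.5, 1053 and 1964 bases in the order above, beside 1420 for the proteasome. In dKO_Flt3ITD 1, tested genes under 1500 bases had a median deviation of 0.84 (log2). The part of length in these medians was not tested.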

How the data were processed

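Per the labels' protocols, SMARTer full-length libraries were made, a kit that marks no strand. The tools named by the submitters' processing notes are HTSeq 0.5.4p5, SAMtools 0.1.19 and TopHat2 2.0.10, with build mm10. The authors deposited RPKM in 1 table of 13016 genes by 12 libraries. Their read total and annotation were not stated in these sources. Titles gave groups and replicate numbers, and the samples' descriptions matched the columns.

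Whole reads and transcript lengths were recovered from the steps between low RPKM values. Reads were within 0.001 of a whole number for 100% of genes and lengths for 99.854%, with the other lengths rounded. The reads recovered were 0.868 to 1.25 times the library size implied by the authors' scaling. PCR reads without molecular identifiers are not independent molecules, so depth covers counting error only. Replicates differed by a chi-square per degree of freedom of 114.8 to 625, and none was treated as a copy.

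The 10690 genes that reached 1 RPKM in 4 or more of the 12 libraries entered a limma fit (version 3.58.1, R 4.3.3) of log2(RPKM + 1) on group, allowing a mean-variance trend, with 9 residual degrees of freedom. P-values were adjusted by Benjamini-Hochberg and called under 0.05. On this scale the fold changes of low genes are understated. The steps were tested on simulated data. Alternatives were other pseudocounts, filters, scalings and variance models, array weights, voom on recovered reads, a replicate block, left-out libraries and, chosen after seeing the data, removal of the gene-length trend.

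The members and gene lists were chosen with earlier results of these data known. Members named with all values are, in each role, the highest and lowest by mean, and in each comparison the 5 with the smallest p and those whose groups did not overlap. Listed genes outside the set are named when called, otherwise up to 2 per list by smallest p. Positions came from GENCODE release M21 on GRCm38, the build that mm10 names. Pseudogene transcripts of at least 90% identity over at least 50% of the transcript matched 11 members, 3 of them at 98% or more. Promoters came from RefSeq. Other steps ran in Python 3.11.15 with pandas 2.3.3, numpy 2.4.6 and, for plots, matplotlib 3.10.9.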

Additional observations from a re-analysis of the deposited data

Results flagged for a closer look

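In groups of 4 libraries, a value was singled out where its gap to the nearest other library exceeded Dixon's critical share of the group's range. The share is that of the 95% level, which chance gives in about 1 of 20 independent groups of normally spread values. This held for 10 of 81 groups checked. These groups share the same libraries and were partly picked by their values, so the count cannot be set against that rate. Library number 1 was the one singled out in 7 of the 10. In dKO_Flt3ITD the mean log2(RPKM + 1) of the 45 proteasome genes was 7.23 in library 1, far above the other 3. In dKO, library 1 stood apart for Psma3 at 628 RPKM and Psmb2 at 1044 RPKM, both high, and for Psmc4 at 106 RPKM, low. In control, library 1 stood apart for Psmb2 at 178 RPKM and Psmb6 at 164 RPKM, both low, and for Psme4 at 17.6 RPKM, high. Elsewhere, Psme4 was high in dKO_Flt3ITD 2 at 23.1 RPKM, Psma8 in dKO_Flt3ITD 3 at 8.87 RPKM and Psmd9 in dKO 4 at 14.6 RPKM.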

How the results depend on the processing

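Over 25 alternatives, 0 members were called in dKO_Flt3ITD against dKO and in dKO against control, and 0 to 1 in dKO_Flt3ITD against control, where the 1 was Psmg4 without dKO_Flt3ITD 4. Leaving out each library in turn gave median member log2 fold changes of -0.12 to 0.11 in dKO_Flt3ITD against dKO, 0.01 to 0.48 in dKO_Flt3ITD against control and -0.01 to 0.52 in dKO against control. Without library number 1 of each group the median in dKO_Flt3ITD against control was -0.23, and the cause was not tested. Rescaling to equal RPKM sums put the median of all genes at -0.09, -0.21 and -0.11 in these comparisons, in the order above, and gave member medians of -0.12, 0.05 and 0.18. With array weights these were -0.11, 0.03 and 0.12. Members with one of the 5 smallest p in a comparison kept their direction there under all 25 alternatives. That was partly fixed in advance, because these members were picked by p in the same data. Several alternatives, such as other filters, a replicate block or leaving out a library of the third group, also cannot change a fold change. Over all genes, calls ran over the alternatives from 0 to 6 in dKO_Flt3ITD against dKO, where the main test made 0, with 824 genes at an unadjusted p under 0.05. They ran from 27 to 235 in dKO_Flt3ITD against control, where it made 160, and from 0 to 210 in dKO against control, where it made 109, with the lowest counts from voom. Same-numbered deviations correlated at -0.147 to 0.126. Among libraries of other groups, 2 of 12 libraries were most like the one of their own number. The labels do not say whether the numbers mark a shared animal or batch, which these correlations cannot show. With a replicate block, 0 members were called in each comparison, and calls over all genes were 0, 116 and 85. The block cannot change the members' medians of -0.02, 0.30 and 0.32, because every group holds each replicate number once. Of the tissue-restricted Psma8, 6 libraries had 0 or 1 read. As examples, dKO_Flt3ITD 1, with 33985972 reads in all, had 0 Psma8 reads, and control 2, with 20046313, had 156. The part of total depth in these reads was not tested.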
